A study of Homo sapiens with 16 samples.

Results

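The comparison described here sets EVs of PC3 cells isolated with next-gen ATPS against EVs of the same line isolated with the exoRNeasy kit, and its members are the 4 libraries labelled PC3 ATPS (2) and PC3 exoRNeasy (2) among the 16 libraries of the series. PC3 is an established human prostate cancer line, labelled wild type and untreated in both groups, and EVs were taken from its serum-free conditioned medium. In ATPS, EVs move into a dextran-rich phase under polyethylene glycol, the dextran is digested with dextranase and RNA is extracted with TRIzol, whereas exoRNeasy captures EVs on a membrane and purifies RNA on the column of the kit. Isolation and RNA extraction therefore differed together between the groups and cannot be told apart. The remaining libraries are PC3 EVs pelleted by ultracentrifugation (UC), the 3 kinds of EVs of the breast cancer line MDA-231, and cells of both lines. The labels do not state if replicate libraries stem from different cultures, and a p-value here therefore reflects variation among these libraries only, some of which may be technical.

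EVs are membrane vesicles released by cells, and small RNA sequencing reads the short RNAs they carry. miRNAs are cut from hairpin precursors into a 5p and a 3p arm and guide repression of messages through the seed, bases 2 to 8 of the mature strand. snoRNAs work in the nucleolus: C/D box members guide ribose methylation and H/ACA box members guide pseudouridylation of ribosomal RNA, and a few, such as U3, U14 and U22, take part in the cleavage of the ribosomal precursor. Most human snoRNAs are cut out of introns of host genes, many of which encode ribosomal proteins. circRNAs are exons joined into a ring, and a short read from inside the ring cannot be told from a read of the linear message. Only short reads were kept by the study, so a snoRNA or circRNA value counts fragments, and a miRNA precursor entry need not hold whole precursors.

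Values are given as CPM, the reads of an entry scaled to a fixed total over all entries of its RNA class in that library, which the study names TPM, so each is a share of its class. Lower shares can reflect fewer vesicles of a kind, less RNA per vesicle or a rise of other entries in the class, and these cannot be told apart. The paper proposes that ATPS also co-isolates cell-free RNA, so reads of the ATPS libraries need not all come from vesicles. The deposited miRNA values correspond to 5027 and 4612 reads in the PC3 ATPS libraries, against 3162 and 2508 reads in the PC3 exoRNeasy libraries. For snoRNA the totals were 43029 and 41519 reads in PC3 ATPS, against 53435 and 50962 in PC3 exoRNeasy. A single read was worth 199 to 217 CPM of miRNA in PC3 ATPS and 316 to 399 CPM in PC3 exoRNeasy libraries, so that miRNAs of a few reads were measured coarsely. Entries of the miR-200 family, which mark epithelial cells, held at most 1 read a library, with 4 of 5 entries at 0 in all 4 libraries (summed level 0 to 217 CPM in PC3 ATPS and 0 to 399 CPM in PC3 exoRNeasy), and they also stayed at 164 to 174 CPM in PC3 cells. Marker miRNAs of other cell types were as low. Of the blood, endothelium and liver markers 1 of 2 entries had a read (0 to 199 CPM in PC3 ATPS, 0 in PC3 exoRNeasy), of the muscle markers 0 of 1, and of the neuron markers 3 of 12 (summed level 0 to 434 CPM in PC3 ATPS and 399 to 633 CPM in PC3 exoRNeasy).

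The mature miRNAs whose levels carry the comparison are shown first, with the seed in capitals, as RefSeq gives them on GRCh38.p14. They are set out so that the arms of one hairpin and members with one seed can be compared.
hsa-miR-361-3p: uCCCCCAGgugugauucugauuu
hsa-miR-6073: gGUAGUGAguuaucagcuac
hsa-miR-152-3p: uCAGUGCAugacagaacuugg
hsa-miR-100-5p: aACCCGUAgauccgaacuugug
hsa-miR-27a-3p: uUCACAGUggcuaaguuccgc
hsa-miR-27a-5p: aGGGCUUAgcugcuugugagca
hsa-miR-21-5p: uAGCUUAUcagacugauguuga
hsa-miR-30a-5p: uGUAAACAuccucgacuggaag
hsa-miR-181a-5p: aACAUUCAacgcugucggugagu
hsa-miR-181b-5p: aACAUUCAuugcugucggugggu
hsa-miR-7-5p: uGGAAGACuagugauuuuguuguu
hsa-miR-182-5p: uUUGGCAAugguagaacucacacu
Among these, hsa-miR-181a-5p and hsa-miR-181b-5p shared 1 seed, and both were lower in PC3 ATPS EVs. The arms hsa-miR-27a-3p and hsa-miR-27a-5p come from 1 hairpin (chr19:13836440-13836517, minus strand, in an exon of MIR23AHG), and have different seeds. hsa-miR-361-3p (chrX:85903641-85903663, minus strand) comes from an intron of CHM. hsa-miR-21-5p (chr17:59841273-59841294, plus strand) lies in an exon of VMP1, hsa-miR-100-5p (chr11:122152275-122152296, minus strand) in an intron of MIR100HG and hsa-miR-30a-5p (chr6:71403595-71403616, minus strand) in an intron of LINC00472. hsa-miR-6073 (chr11:15969555-15969574, minus strand) lies in an exon of SOX6, hsa-miR-152-3p (chr17:48037174-48037194, minus strand) in an intron of COPZ2, and hsa-miR-182-5p is at chr7:129770447-129770470 on the minus strand. hsa-miR-181a-5p has copies at chr1:198859108-198859130 (minus strand) and chr9:124692480-124692502 (plus strand), hsa-miR-181b-5p at chr1:198858925-198858947 (minus strand) and chr9:124693725-124693747 (plus strand), and hsa-miR-7-5p has copies that include chr9:83969811-83969834 (minus strand) and chr19:4770700-4770723 (plus strand), so reads of these 3 miRNAs cannot be assigned to 1 copy.

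The first question was whether the miRNA profile of PC3 EVs depended on the method. Of 82 miRNA entries with a mean of at least 500 CPM over the 4 libraries, 5 (6.1%) were higher and 14 (17.1%) were lower in PC3 ATPS than in PC3 exoRNeasy EVs at a limma adjusted p under 0.05. These percentages are the background against which the lists below are read. The groups did not overlap for any of the 19 called entries, but they also did not overlap for 20 entries (24.4%) that stood above and 34 entries (41.5%) that stood below in both PC3 ATPS libraries among all 82. The median log2 fold change over the 82 entries was −0.31, so a called decrease is read against a general offset. That offset moved with the scaling, to 0.21 when each library was centred on its median entry, 0.01 with edgeR's TMM and −0.54 with DESeq2. The split moved with it. It was 15 higher and 3 lower after centring, 11 and 13 after quantile normalization, 7 and 15 after rescaling without hsa-miR-182-5p, 12 and 3 with edgeR, and 3 and 7 with DESeq2. Hence the balance of higher against lower miRNAs was not fixed by these data, whereas no named miRNA called in this comparison changed sign under any setting tried.

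The most abundant miRNA differed little. hsa-miR-182-5p, of the miR-183 cluster, made up 549433 and 562229 CPM in PC3 ATPS, against 513915 and 496412 CPM in PC3 exoRNeasy libraries. This amounted to 0.14 on the log2 scale (SE 0.30, limma adjusted p = 0.763). The entry for the hsa-mir-21 precursor stood at 52914 and 73070 CPM in PC3 ATPS, against 57559 and 64593 CPM in PC3 exoRNeasy, and the groups overlapped (log2 fold change 0.03, limma adjusted p = 0.929). Of the 15 most abundant miRNA entries, hsa-mir-7641-2, hsa-miR-361-3p and hsa-miR-100-5p were called higher, and hsa-miR-27a-5p, hsa-miR-425-5p, hsa-miR-21-5p and hsa-miR-663b lower.

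**Figure D1:**
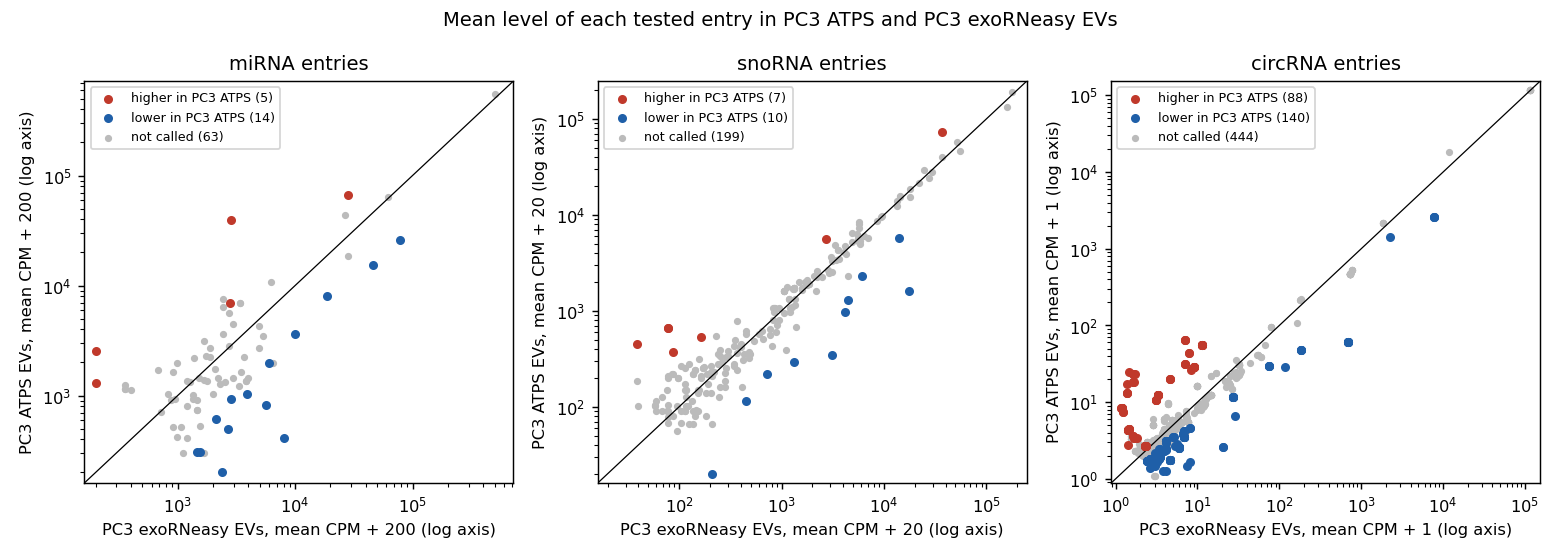
Mean CPM plus a pseudocount of each tested entry in PC3 ATPS EVs (vertical, log axis) against PC3 exoRNeasy EVs (horizontal, log axis) for miRNA, snoRNA and circRNA. Each point is 1 entry and the line marks equal levels; red entries were higher and blue entries lower in PC3 ATPS by limma, 5 and 14 for miRNA, 7 and 10 for snoRNA, 88 and 140 for circRNA, and the most abundant entry of each class lies close to the line.

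At the pseudocount of 200 the fitted increase was largest for hsa-miR-361-3p, although hsa-miR-6073, with no read in PC3 exoRNeasy, has a fold that is bounded from below only. hsa-miR-361-3p stood at 38990 and 40113 CPM in PC3 ATPS, against 2530 and 2791 CPM in PC3 exoRNeasy libraries. Both PC3 ATPS libraries were far above both PC3 exoRNeasy libraries, with 196 and 185 reads against 8 and 7. The log2 fold change was 3.80 (SE 0.66, limma adjusted p = 0.000702), or 13.9-fold on the scale of CPM plus 200. UC EVs of PC3 stood at 44073 and 36238 CPM, which is close to the PC3 ATPS level, and PC3 cells at 24258 and 25511 CPM. The opposite arm, hsa-miR-361-5p, had no read in PC3 ATPS libraries, against 0 and 399 CPM in PC3 exoRNeasy libraries, and did not reach the minimum for testing.

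hsa-mir-7641-2, an entry whose sequence overlaps ribosomal RNA, was the most abundant of the higher entries. It held 68431 and 62879 CPM in PC3 ATPS, against 25300 and 31101 CPM in PC3 exoRNeasy, and 69874 and 71512 CPM in UC EVs. The fitted log2 fold change was 1.22 (SE 0.20, limma adjusted p = 0.000487). Reads of this entry cannot be told from ribosomal RNA fragments. A list of 12 tested entries overlaps ribosomal, transfer, small nuclear or small nucleolar RNA or Alu sequence. Of these 1 was higher and 1, hsa-miR-663b, was lower, with a median log2 fold change of 0.02 beside −0.31 for the class.

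The other increases rested on few reads. hsa-miR-6073 had 6 and 16 reads in PC3 ATPS and none in either PC3 exoRNeasy library (limma adjusted p = 0.00125). Against a floor of 3 reads over the PC3 exoRNeasy group it was 4.31-fold higher, with its PC3 ATPS reads taken as exact. hsa-miR-152-3p had 9 and 2 reads against none and was 2.16-fold higher against the same floor (limma adjusted p = 0.00802). It fell just short with the 4 libraries fitted alone (limma adjusted p = 0.0532), and DESeq2 gave no adjusted p for it. The precursor entry hsa-mir-152 did not reach the minimum for testing. That entry stood at 0 and 216.8 CPM in PC3 ATPS, against 632.5 and 398.7 CPM in PC3 exoRNeasy. hsa-miR-100-5p stood at 8355 and 4987 CPM in PC3 ATPS, against 4428 and 797 CPM in PC3 exoRNeasy. Its log2 fold change was 1.63 (SE 0.55, limma adjusted p = 0.0383), and the call was lost without either PC3 ATPS library, without PC3 exoRNeasy replicate 2, or without either MDA exoRNeasy library, with adjusted p up to 0.375 in limma without PC3 exoRNeasy replicate 2. It was also lost with a pseudocount of 1, with all 16 libraries or the PC3 EV libraries alone in the fit, and with DESeq2.

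On the lower side, hsa-miR-186-5p had the largest fitted decrease at the pseudocount of 200, a rank that depends on it because hsa-mir-561 had no read in PC3 ATPS. hsa-miR-186-5p stood at 199 and 217 CPM in PC3 ATPS, against 8223 and 7576 CPM in PC3 exoRNeasy. These are 1 and 1 reads against 26 and 19 reads, a ratio of exoRNeasy to ATPS of 38.2 with an exact counting interval of 9.99 to 326 (95% level). On the log2 scale the change was −4.31 (SE 0.65, limma adjusted p = 0.000424). UC EVs were also near 0, at 0 and 137.8 CPM, and PC3 cells at 116 and 113 CPM, so the PC3 exoRNeasy libraries stood apart from all the other PC3 libraries. The call was lost with a pseudocount of 1 (limma adjusted p = 0.147).

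hsa-miR-425-5p stood at 13726 and 16479 CPM in PC3 ATPS, against 48387 and 42664 CPM in PC3 exoRNeasy. On the log2 scale it fell by 1.58 (SE 0.27, limma adjusted p = 0.000487), and UC EVs lay between, at 23063 and 24871 CPM. Only edgeR lost this call (adjusted p = 0.0771). hsa-miR-425-3p had 796 and 0 CPM in PC3 ATPS, against 0 in both PC3 exoRNeasy libraries.

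The arms of the miR-27a hairpin are given side by side. hsa-miR-27a-5p stood at 26656 and 24935 CPM in PC3 ATPS, against 72423 and 82935 CPM in PC3 exoRNeasy, a log2 fold change of −1.58 (SE 0.36, limma adjusted p = 0.00496). In UC EVs it was lower still, at 2874 and 3307 CPM, and in PC3 cells it was at 29.1 and 61.6 CPM. hsa-miR-27a-3p, the arm that is usually the more abundant, stood at 6565 and 8023 CPM in PC3 ATPS, against 1265 and 3190 CPM in PC3 exoRNeasy. Its log2 fold change of 1.74 (SE 0.62) missed the threshold (limma adjusted p = 0.0514), although the groups did not overlap, and it passed under some of the alternatives. The precursor entry hsa-mir-27a followed the 5p arm, with 597 and 651 CPM in PC3 ATPS, against 7274 and 3589 CPM in PC3 exoRNeasy (log2 fold change −2.69, limma adjusted p = 0.0115). That call was lost without either PC3 ATPS library or without PC3 exoRNeasy replicate 1, at adjusted p up to 0.0615 in limma, and with a pseudocount of 1 or centring (up to 0.256). The call on hsa-miR-27a-5p was lost after centring and with edgeR (adjusted p up to 0.0758).

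hsa-miR-21-5p, a miRNA raised in many tumors, was lower in PC3 ATPS EVs, at 7957 and 7589 CPM, against 19924 and 16746 CPM in PC3 exoRNeasy EVs. On the log2 scale it fell by 1.21 (SE 0.30, limma adjusted p = 0.00802). The hsa-mir-21 entry, which held most miR-21 reads, was level (log2 fold change 0.03). Together the 3 miR-21 entries held 61070 and 80876 CPM in PC3 ATPS, against 77483 and 82536 CPM in PC3 exoRNeasy, and the groups overlapped. For hsa-miR-21-5p the level in PC3 ATPS was near that of UC EVs, at 8623 and 8198 CPM, and of PC3 cells, at 7844 and 8059 CPM. The call was lost without PC3 ATPS replicate 2 (limma adjusted p = 0.0565) and under centring, quantile normalization and edgeR (adjusted p up to 0.261).

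A group of less abundant miRNAs was also lower. hsa-miR-30a-5p stood at 1790 and 1735 CPM in PC3 ATPS, against 4428 and 7177 CPM in PC3 exoRNeasy (log2 fold change −1.57, limma adjusted p = 0.00802). Within its family of 5 tested entries it was the only one called, and the family median was 0.83. hsa-miR-181a-5p stood at 796 and 867 CPM in PC3 ATPS, against 5060 and 2392 CPM in PC3 exoRNeasy. hsa-miR-181b-5p stood at 398 and 434 CPM in PC3 ATPS, against 2214 and 1595 CPM in PC3 exoRNeasy. The log2 fold changes of this pair with a common seed were −1.84 and −1.76 (limma adjusted p = 0.0166 and 0.0109). hsa-miR-7-5p stood at 796 and 651 CPM in PC3 ATPS, against 2530 and 2791 CPM in PC3 exoRNeasy (log2 fold change −1.63, limma adjusted p = 0.0135). Each of these calls was lost without PC3 ATPS replicate 1 or without PC3 ATPS replicate 2, and that on hsa-miR-181a-5p also without PC3 exoRNeasy replicate 1. The highest adjusted p in limma without 1 library was 0.0615 for hsa-miR-30a-5p, 0.107 for hsa-miR-181a-5p, 0.0616 for hsa-miR-181b-5p and 0.0741 for hsa-miR-7-5p. All 4 calls were also lost after centring and with edgeR, and those on hsa-miR-181a-5p, hsa-miR-181b-5p and hsa-miR-7-5p with DESeq2 and with the 4 compared libraries alone (adjusted p up to 0.239 over these settings, for hsa-miR-7-5p).

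hsa-miR-663b stood at 3382 and 3469 CPM in PC3 ATPS, against 7274 and 12360 CPM in PC3 exoRNeasy (log2 fold change −1.42, limma adjusted p = 0.0196). Without either PC3 ATPS library or PC3 exoRNeasy replicate 2 the call was lost (limma adjusted p up to 0.0951), as it was with all 16 libraries, centring, quantile normalization and edgeR (up to 0.199). The precursor entry hsa-mir-561 had no read in PC3 ATPS, against 5 and 7 reads in PC3 exoRNeasy (limma adjusted p = 0.00125). It was 6.8-fold lower with a floor of 3 reads over the PC3 ATPS group and the PC3 exoRNeasy reads taken as exact. DESeq2 did not call it (adjusted p = 0.455). For hsa-miR-218-5p there were 3 and 0 reads in PC3 ATPS, against 8 and 6 in PC3 exoRNeasy, a ratio of exoRNeasy to ATPS of 7.93 with a counting interval of 2.21 to 43.1. hsa-mir-218-2 had 0 and 1 reads against 6 and 2, and hsa-mir-4461 had 0 and 1 reads against 3 and 4. Their counting ratios of 13.6 (1.82 to 603) and 11.9 (1.53 to 536) had wide intervals. hsa-miR-218-5p was no longer called without PC3 ATPS replicate 2 (limma adjusted p = 0.226), hsa-mir-218-2 without either PC3 ATPS library or PC3 exoRNeasy replicate 1 (up to 0.204), and hsa-mir-4461 without PC3 ATPS replicate 1 or PC3 exoRNeasy replicate 2 (up to 0.111). These 3 calls were also lost with a pseudocount of 1, after centring and with edgeR, that on hsa-miR-218-5p with all 16 libraries and with DESeq2, those on hsa-mir-218-2 and hsa-mir-4461 with the 4 compared libraries alone, and that on hsa-mir-4461 after quantile normalization. DESeq2 gave no adjusted p for hsa-mir-218-2 and hsa-mir-4461.

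**Figure D2:**
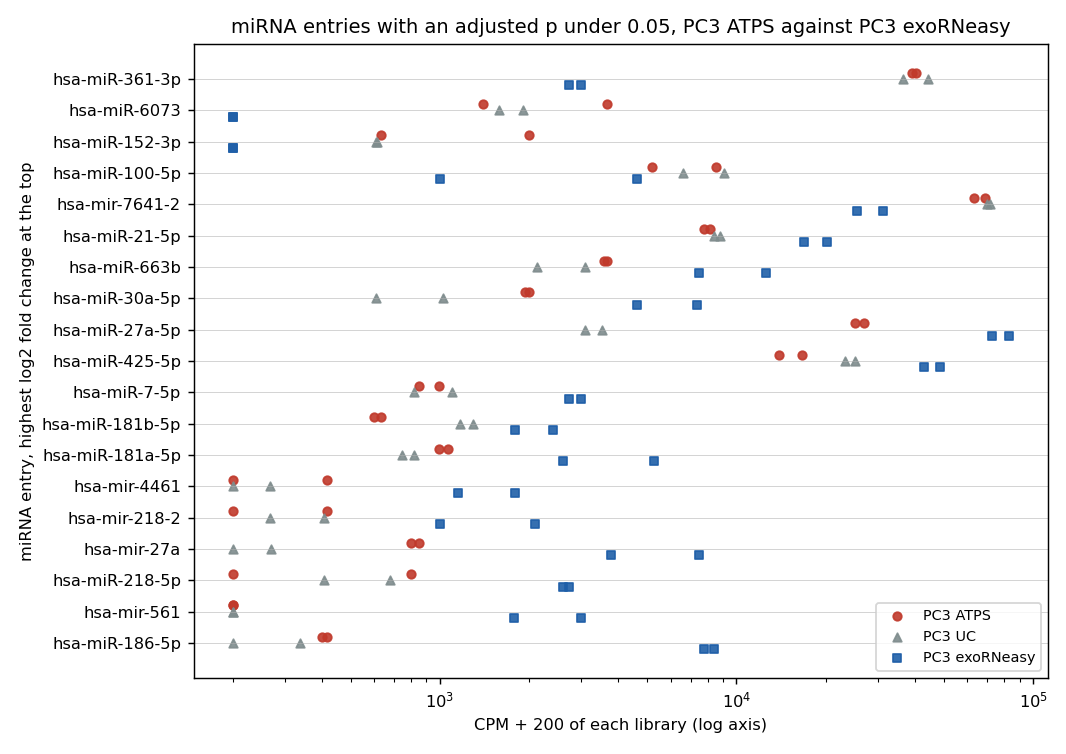
CPM plus 200 of each library (log axis) for the 19 miRNA entries with an adjusted p under 0.05, ordered by log2 fold change; circles are PC3 ATPS, triangles PC3 UC and squares PC3 exoRNeasy libraries, 2 each. The squares and circles do not overlap in any row, though they come close for hsa-miR-100-5p. At the top is hsa-miR-361-3p (log2 fold change 3.80) and at the bottom hsa-miR-186-5p (−4.31).

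Grouped by arm, 1 of the 31 tested 5p entries was higher and 9 were lower, with a median log2 fold change of −0.86. Of the 15 tested 3p entries 2 were higher and 0 lower, with a median of 0.68, beside −0.31 over the class. The 5p entries together made up 65.5% and 65.2% of miRNA reads in PC3 ATPS, against 74.1% and 70.8% in PC3 exoRNeasy. The 3p entries made up 13.2% and 10.6% in PC3 ATPS, against 6.01% and 7.10% in PC3 exoRNeasy. This grouping was chosen after the values were seen, and its counts are a description. In the let-7 and miR-98 family, 0 of 9 tested entries passed the test in either direction, with a median of 0.37 and values between −1.71 and 1.82. In the miR-221 and miR-222 cluster, 0 of 5 passed, and hsa-miR-222-3p stood at 56694 and 30789 CPM in PC3 ATPS, against 22454 and 30303 CPM in PC3 exoRNeasy (log2 fold change 0.68, limma adjusted p = 0.169). Median GC content was 47.7% for the 4 higher mature miRNAs with a sequence and 46.6% for the 8 lower ones, against 47.8% for 33 that were not called.

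By the share of entries called and by correlation, the snoRNA profiles were closer than those of miRNA. The classes differed in depth, with 41519 to 53435 snoRNA reads a library against 2508 to 5027 miRNA reads, and in the filter. Whether this gave the difference between the classes was not tested. Of 216 tested entries with a mean of at least 50 CPM, 7 (3.24%) were higher and 10 (4.63%) were lower in PC3 ATPS than in PC3 exoRNeasy EVs by limma, and 174 (80.6%) lay within 1 log2 unit of equality. Among the 7, SNORA50 and SNORA50C hold the same values and are 1 observation. The median log2 fold change was 0.09, and scaling moved it little (−0.01 with edgeR and with DESeq2). Across the tested entries, Pearson's r of log2 values was 0.958 between the PC3 ATPS libraries and 0.966 between the PC3 exoRNeasy libraries, and 0.910 to 0.931 between methods. These are correlations across entries, which are not replicates. For miRNA the same values were 0.908, 0.792 and 0.642 to 0.672.

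Of the 15 most abundant snoRNAs, SNORD20 was called and is described below. SNORD49A stood at 185131 and 197669 CPM in PC3 ATPS, against 172658 and 185491 CPM in PC3 exoRNeasy (log2 fold change 0.10, limma adjusted p = 0.966). SNORD2 stood at 130238 and 136106 CPM in PC3 ATPS, against 166763 and 151642 CPM in PC3 exoRNeasy (log2 fold change −0.26, limma adjusted p = 0.856). The groups of SNORD2 did not overlap, and it was called with the PC3 EV libraries alone and with the 4 compared libraries alone (limma adjusted p down to 1.63e-05). C/D box entries held 96.9% and 97.3% of snoRNA reads in PC3 ATPS, against 96.6% and 96.4% in PC3 exoRNeasy. Of 154 tested C/D entries 5 were higher and 6 lower, and of 54 H/ACA entries 2 were higher and 4 lower, with medians of 0.10 and −0.12 beside 0.09 for the class. The 2 higher H/ACA entries, SNORA50 and SNORA50C, hold the same values and are not separate observations.

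Sequences of the snoRNAs that differed most are given from GENCODE release 44 on GRCh38, because the copies that rose and their host genes can then be compared. Capitals mark the boxes found by searching the sense strand: NTGATGA for the C box within the first 20 bases, CTGA for the D box within the last 20 bases, ANANNA for the H box near the middle and ACA near the 3′ end.
SNORD14B: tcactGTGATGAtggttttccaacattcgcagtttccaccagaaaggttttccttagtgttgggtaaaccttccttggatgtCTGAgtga
SNORD14A: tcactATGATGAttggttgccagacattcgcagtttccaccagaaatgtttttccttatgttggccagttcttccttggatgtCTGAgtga
SNORA50C: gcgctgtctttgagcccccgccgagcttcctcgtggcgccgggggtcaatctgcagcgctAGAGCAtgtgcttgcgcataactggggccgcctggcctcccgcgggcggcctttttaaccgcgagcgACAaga
SNORD15A: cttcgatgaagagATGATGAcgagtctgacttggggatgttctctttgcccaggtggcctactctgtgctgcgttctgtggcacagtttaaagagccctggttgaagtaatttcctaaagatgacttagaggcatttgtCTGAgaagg
SNORD22: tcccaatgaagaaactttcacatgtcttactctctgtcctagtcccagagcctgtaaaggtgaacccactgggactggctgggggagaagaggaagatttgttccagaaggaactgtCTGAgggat
SNORA66: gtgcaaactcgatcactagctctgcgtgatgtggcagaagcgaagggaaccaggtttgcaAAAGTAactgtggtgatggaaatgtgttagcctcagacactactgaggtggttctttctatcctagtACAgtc
SNORD14B lies at chr11:17075779-17075868 and SNORD14A at chr11:17074654-17074744, both on the minus strand in introns of RPS13. SNORA50C lies at chr17:64146339-64146471 on the plus strand in an exon of SNHG25. SNORD15A lies at chr11:75400391-75400538 on the plus strand in an intron of RPS3. SNORD22 lies at chr11:62852910-62853035 on the minus strand in an intron of SNHG1, and a second gene model bears the same name. SNORA66 lies at chr1:92840719-92840851 on the plus strand in an intron of RPL5. The C motif was found in 66.5% and the D motif in 94.7% of the 152 tested C/D entries with a sequence, and the H and ACA motifs in 84.6% and 82.7% of 52 H/ACA entries.

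The increase was clearest in the U14 family, C/D box RNAs that in yeast are needed for maturation of small-subunit ribosomal RNA. Of its 5 tested entries 3 were higher and 0 lower, with a median log2 fold change of 1.69. SNORD14B stood at 535 and 337 CPM in PC3 ATPS, against 18.7 and 19.6 CPM in PC3 exoRNeasy, which are 23 and 14 reads against 1 and 1. The ratio of ATPS to exoRNeasy was 22.8 with a counting interval of 5.89 to 196, and the log2 fold change was 3.51 (SE 0.52, limma adjusted p = 9.15e-05). SNORD14A stood at 372 and 337 CPM in PC3 ATPS, against 93.6 and 39.2 CPM in PC3 exoRNeasy (log2 fold change 2.19, limma adjusted p = 0.0155). SNORD14E, in an intron of HSPA8, stood at 627 and 409 CPM in PC3 ATPS, against 131 and 157 CPM in PC3 exoRNeasy (log2 fold change 1.69, limma adjusted p = 0.018). The other copies from HSPA8 were level. SNORD14C stood at 2719 and 2433 CPM in PC3 ATPS, against 2246 and 2139 CPM in PC3 exoRNeasy. SNORD14D stood at 488 and 626 CPM in PC3 ATPS, against 561 and 608 CPM in PC3 exoRNeasy. SNORD14A and SNORD14B are 85.9% identical, so a short read of a shared stretch cannot be assigned to either, and the split between copies is uncertain. The family together made up 0.474% and 0.414% of snoRNA reads in PC3 ATPS, against 0.305% and 0.296% in PC3 exoRNeasy. The calls on SNORD14A and SNORD14E were lost with edgeR and with DESeq2. That on SNORD14A was also lost without either PC3 ATPS library or PC3 exoRNeasy replicate 2 (limma adjusted p up to 0.23), and that on SNORD14E without PC3 ATPS replicate 1 or either PC3 exoRNeasy library (up to 0.22).

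SNORA50C stood at 720 and 578 CPM in PC3 ATPS, against 18.7 and 98.1 CPM in PC3 exoRNeasy, a log2 fold change of 3.30 (SE 0.50, limma adjusted p = 9.15e-05). The entry SNORA50 holds the same values in every library and is not a separate observation. RefSeq lists SNORA50 as another name of SNORA50A, so which locus these reads came from is unsure, and the sequence and host printed are those of the name SNORA50C. SNORD104, also of SNHG25, was level (log2 fold change 0.10). SNORD20, a guide for small-subunit ribosomal RNA in an intron of NCL, was the only one of the higher snoRNAs among the 15 most abundant. It held 76390 and 69486 CPM in PC3 ATPS, against 42201 and 32456 CPM in PC3 exoRNeasy (log2 fold change 0.98, SE 0.25, limma adjusted p = 0.0155). The call was lost without either PC3 ATPS library or PC3 exoRNeasy replicate 2 (limma adjusted p up to 0.284), with the PC3 EV libraries alone, after quantile normalization, and with edgeR and DESeq2. SNORD95, in an intron of RACK1, stood at 5647 and 5636 CPM in PC3 ATPS, against 2732 and 2728 CPM in PC3 exoRNeasy (log2 fold change 1.04, limma adjusted p = 0.044). Its call was lost without any one of the 6 PC3 EV libraries (limma adjusted p up to 0.268), after rescaling, and with edgeR and DESeq2.

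At the pseudocount of 20 the fitted decrease was largest for SNORD15A, a C/D box RNA that guides methylation of large-subunit ribosomal RNA. It stood at 1673 and 1542 CPM in PC3 ATPS, against 17947 and 17562 CPM in PC3 exoRNeasy, with 72 and 64 reads against 959 and 895. The log2 fold change was −3.45 (SE 0.45, limma adjusted p = 4.49e-05), a 10.9-fold lower level on the scale of CPM plus 20. UC EVs were at the PC3 ATPS level, with 1437 and 1656 CPM. SNORD15B, from another intron of RPS3, stood at 627 and 674 CPM in PC3 ATPS, against 1291.3 and 1452 CPM in PC3 exoRNeasy (log2 fold change −1.05, limma adjusted p = 0.2). The pair are 67.5% identical.

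SNORD22 (U22), which in the frog Xenopus is needed to process small-subunit ribosomal RNA, stood at 418 and 241 CPM in PC3 ATPS, against 3331 and 2865 CPM in PC3 exoRNeasy. The log2 fold change was −3.20 (SE 0.51, limma adjusted p = 0.000162), and UC EVs stood at 198 and 234 CPM. It was the only 1 of the 6 tested snoRNAs of SNHG1 that was called, and the other members lay between −0.27 and 0.17. SNORA66, an H/ACA box RNA, stood at 883 and 1012 CPM in PC3 ATPS, against 3818 and 4494 CPM in PC3 exoRNeasy (log2 fold change −2.11, SE 0.35, limma adjusted p = 0.000259). Here UC EVs, at 3874 and 3662 CPM, were near the PC3 exoRNeasy level. SNORD21, from the same host RPL5, was level at 5950 and 5492 CPM in PC3 ATPS, against 5970 and 5200 CPM in PC3 exoRNeasy.

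**Figure D3:**
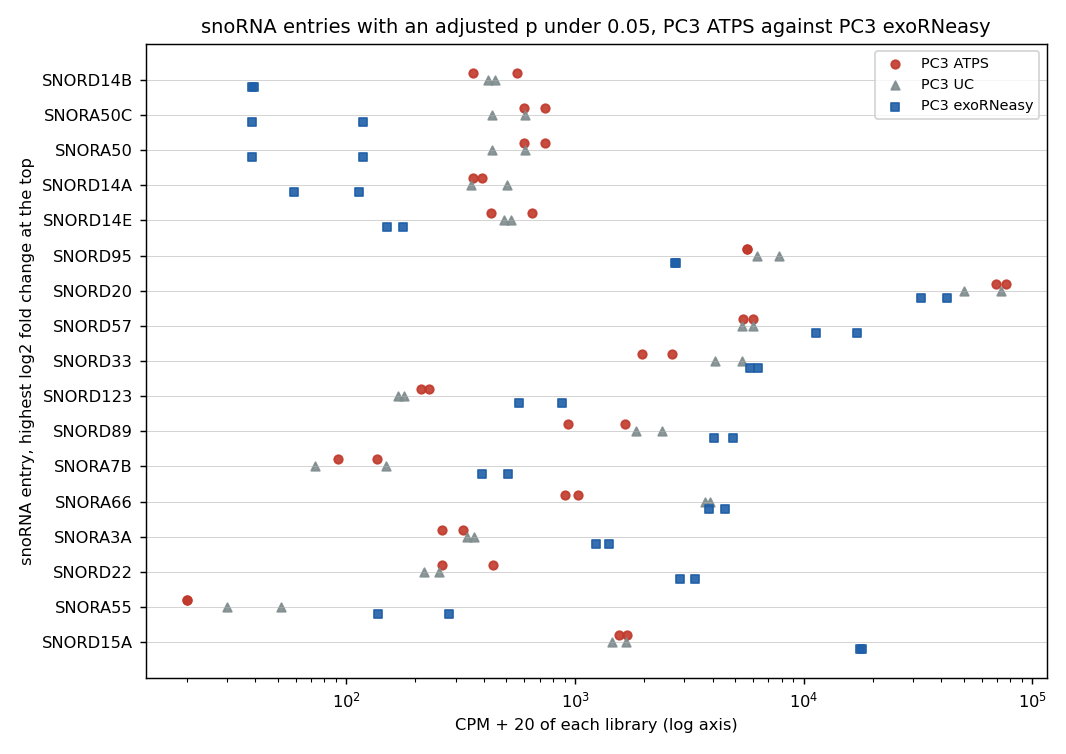
CPM plus 20 of each library (log axis) for the 17 snoRNA entries with an adjusted p under 0.05, ordered by log2 fold change; circles are PC3 ATPS, triangles PC3 UC and squares PC3 exoRNeasy libraries, 2 each. SNORD14B is at the top (log2 fold change 3.51) and SNORD15A at the bottom (−3.45), and for SNORA66 the UC libraries lie beside the PC3 exoRNeasy libraries.

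The remaining decreases were smaller or rested on fewer reads. SNORA55 had no read in PC3 ATPS, against 14 and 6 reads in PC3 exoRNeasy (limma adjusted p = 0.00899). It was 5.40-fold lower with a floor of 3 reads over the PC3 ATPS group and the PC3 exoRNeasy reads taken as exact. The call was lost without PC3 exoRNeasy replicate 1 and with edgeR (adjusted p 0.0773 in limma and 0.0643 in edgeR). SNORA3A stood at 302 and 241 CPM in PC3 ATPS, against 1385 and 1217 CPM in PC3 exoRNeasy (log2 fold change −2.18, limma adjusted p = 0.00557). It was lost without PC3 ATPS replicate 2 (limma adjusted p = 0.0673). SNORD89 stood at 1627 and 915 CPM in PC3 ATPS, against 4866 and 4023 CPM in PC3 exoRNeasy (log2 fold change −1.84, limma adjusted p = 0.0106). SNORD33 and SNORD57 guide methylation of small-subunit ribosomal RNA. SNORD33 stood at 2626 and 1951 CPM in PC3 ATPS, against 6288 and 5828 CPM in PC3 exoRNeasy (log2 fold change −1.41, limma adjusted p = 0.0113). SNORD57 stood at 5973 and 5419 CPM in PC3 ATPS, against 16993 and 11263 CPM in PC3 exoRNeasy (log2 fold change −1.28, limma adjusted p = 0.0155). SNORA7B and SNORD123, at −1.99 and −1.68, held at most 209 CPM in PC3 ATPS and at least 373 CPM in PC3 exoRNeasy (limma adjusted p = 0.0318 and 0.0302). The calls on SNORD89 and SNORD33 were lost without PC3 ATPS replicate 2 or either PC3 exoRNeasy library (limma adjusted p up to 0.19 and 0.174), that on SNORD57 without either PC3 ATPS library or PC3 exoRNeasy replicate 1 (up to 0.34), and those on SNORA7B and SNORD123 without any one of the 4 compared libraries (up to 0.249 and 0.383). SNORA7B was also lost without MDA UC replicate 1 and SNORD123 without PC3 UC replicate 2, and both with edgeR and DESeq2. SNORD57 was also lost after quantile normalization.

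Calls were seldom shared within a host gene, and over the class only 3.24% of snoRNAs were called higher and 4.63% lower. All tested snoRNAs went the same way in RPS3 (−3.45 and −1.05), RPL27A (−2.18 and −0.61), NOP56 (−1.28 to −0.22), RACK1 (0.14 and 1.04), SNHG25 (0.10 and 3.30) and RPS13. Signs were mixed in NCL, RPL13A, RPL5, SNHG1 and HSPA8. Of 11 host genes with a called snoRNA and at least 2 tested ones, only RPS13 had all of its tested snoRNAs called, and those are U14 copies. In the RPL13A group, SNORD33 was lower while SNORD32A, SNORD34 and SNORD35A lay between −0.19 and 0.15. Large blocks without a called member included the 21 tested SNORD116 copies (median 0.39, 0 higher and 0 lower) and the 6 tested U3 copies (median 0.05). No SNORD115 copy was tested. Some SNORD116 copies had equal estimates, such as SNORD116-19 and SNORD116-17 (both 0.39), so the 21 are not separate observations.

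**Figure D4:**
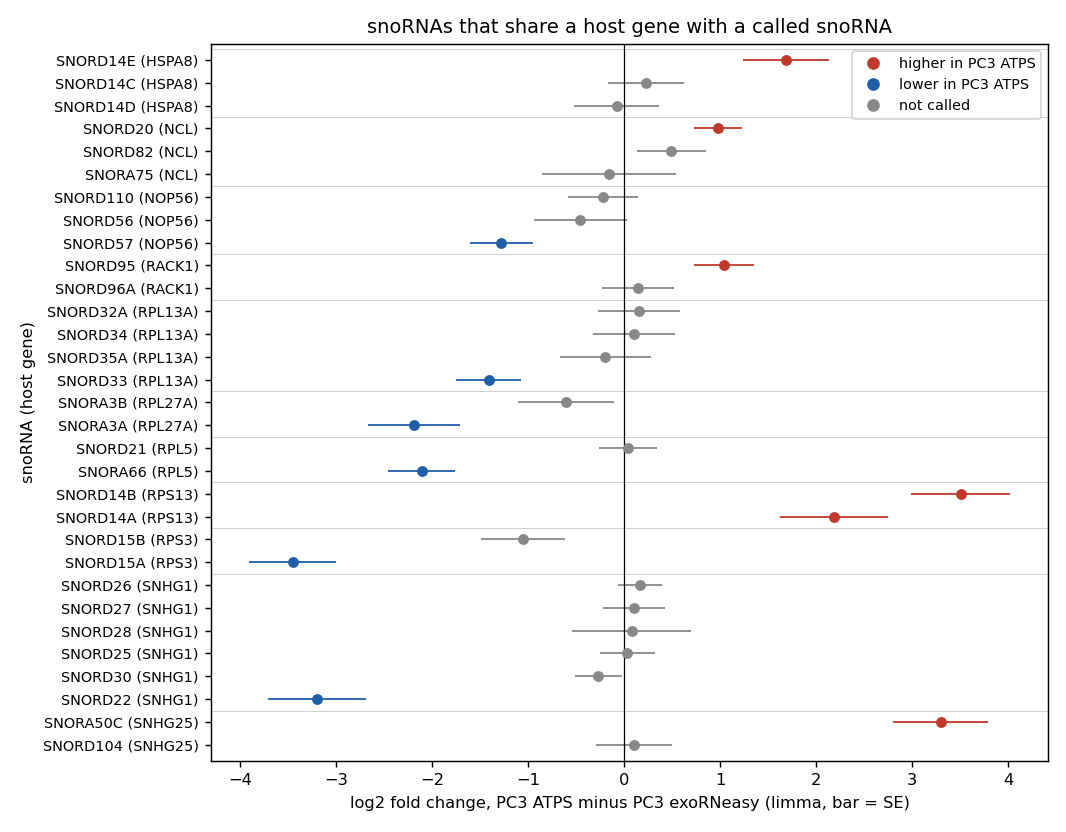
log2 fold change of PC3 ATPS minus PC3 exoRNeasy for snoRNAs of host genes with a called and at least 1 other tested snoRNA; points are limma estimates and bars are SE. Red and blue points were called higher and lower in PC3 ATPS. Within SNHG1 and RPL13A a single snoRNA stood apart from its neighbours, and RPL5 and RPS3 had 2 tested snoRNAs each, of which 1 was called.

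In the circRNA table, entries share reads. The 8 most abundant entries had equal values in each library and together held 94.3% and 94.6% of the class in PC3 ATPS, against 92.8% and 92.1% in PC3 exoRNeasy, so they are 1 observation. Of 672 tested entries with a mean of at least 1 CPM, 88 (13.1%) were higher and 140 (20.8%) were lower in PC3 ATPS by limma. The 672 entries formed 219 groups of near-equal values (within 5%), of which 26 groups had all entries higher and 42 all entries lower. The median log2 fold change was −0.15, and it was 0.22 after rescaling without the 8 dominant entries, where 105 were higher and 79 lower. The split was 85 and 105 after centring, 77 and 99 with edgeR, and 102 and 107 with DESeq2. The files pair circRNA entries with no gene, and whether the reads came from circular RNA was not tested.

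hsa_circ_0084011 showed the largest increase, with 23.4 and 24.6 CPM in PC3 ATPS, against 0.556 and 0.342 CPM in PC3 exoRNeasy (log2 fold change 4.11, SE 0.50, limma adjusted p = 0.000245). hsa_circ_0105842 stood at 20.3 and 24.8 CPM in PC3 ATPS, against 0.701 and 0.583 CPM in PC3 exoRNeasy (log2 fold change 3.84, limma adjusted p = 2.32e-05). UC EVs were higher than both methods for each, at 85.8 and 54.4 CPM for hsa_circ_0084011 and 49.99 and 41.0 CPM for hsa_circ_0105842. The largest decrease was that of hsa_circ_0004045, one of 9 entries with near-equal values, at 65.7 and 53.5 CPM in PC3 ATPS, against 598 and 776 CPM in PC3 exoRNeasy (log2 fold change −3.50, limma adjusted p = 0.000305). In UC EVs it stood at 130 and 157 CPM. The most abundant of the lower entries was hsa_circ_0017177, one of 3 with near-equal values, at 2802 and 2459 CPM in PC3 ATPS, against 7681 and 7816 CPM in PC3 exoRNeasy (log2 fold change −1.56, limma adjusted p = 0.000429). UC EVs stood at 2339 and 2496 CPM for this entry.

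The next question was how many entries each method detected. In miRNA, 169 and 185 entries had at least 1 read in PC3 ATPS, against 176 and 154 in PC3 exoRNeasy, a difference of 12 that the spread covers (exact permutation test, two-sided p = 0.667). With 2 libraries against 2 the smallest p this exact permutation test can give is 0.3333. When each library was thinned to 2508 reads the difference was −22.8, so its direction depended on depth. In snoRNA, 261 and 255 entries were detected in PC3 ATPS, against 262 and 267 in PC3 exoRNeasy (exact permutation test, two-sided p = 0.3333), and thinning turned the difference to 1.3. In circRNA, 27602 and 29379 entries were detected in PC3 ATPS, against 37416 and 37290 in PC3 exoRNeasy, a difference of −8862.5 (exact permutation test, two-sided p = 0.3333, the smallest it can give). That direction held after thinning, at −9598.8, and at −4230.9 without the dominant entries. Thinning drew the reads of each entry as separate, whereas circRNA entries share reads, so it did not equalize the number of distinct reads.

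Between the methods, 145 miRNA entries were detected by both, which is 58.9% of the 246 of PC3 ATPS and 63.6% of the 228 of PC3 exoRNeasy. For snoRNA 259 were shared, 91.8% of 282 and 90.2% of 287, and for circRNA 29154, 68.0% of 42846 and 54.7% of 53297. The shared entries carried at least 97.4% of miRNA CPM, 99.9% of snoRNA CPM and 99.98% of circRNA CPM in each library. Of the entries found with one method, most held 3 reads or fewer over both libraries. These were 89.1% of 101 in PC3 ATPS and 94.0% of 83 in PC3 exoRNeasy for miRNA. hsa-miR-6073, with 22 reads, led the miRNA entries found only in PC3 ATPS, and hsa-mir-561, with 12 reads, those found only in PC3 exoRNeasy.

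Finally, the difference between the methods in PC3 was set beside that in MDA EVs. All 5 miRNAs higher in PC3 ATPS had the same sign in MDA, and 1 of them passed the test there, beside 44 of all 82 tested entries (53.7%) above 0 and 3 (3.66%) called higher in MDA ATPS. Of the 14 lower miRNAs 13 had the same sign in MDA and 4 passed, beside 38 (46.3%) below 0 and 6 (7.32%) called lower. Of the 7 higher snoRNAs 6 had the same sign and 2 passed, beside 120 of 216 (55.6%) above 0 and 4 (1.85%) called higher. These counts take SNORA50 and SNORA50C, which hold the same values, as separate entries. Of the 10 lower snoRNAs 8 had the same sign and 3 passed, beside 96 (44.4%) below 0 and 5 (2.31%) called lower. For circRNA 84 of the 88 higher entries had the same sign and 41 passed, beside 248 of 672 (36.9%) and 56 (8.33%). Of the 140 lower circRNA entries 125 had the same sign and 62 passed, beside 424 (63.1%) and 82 (12.2%), and circRNA entries share reads. hsa-miR-425-5p fell in MDA ATPS as well, to 12720 and 12976 CPM, against 51167 and 65086 CPM in MDA exoRNeasy (log2 fold change −2.15, limma adjusted p = 3.13e-05). For hsa-miR-361-3p, MDA ATPS held 1850 and 7209 CPM, against 614 and 1009 CPM in MDA exoRNeasy (log2 fold change 1.97, limma adjusted p = 0.0616), and the difference between the lines did not pass (adjusted p = 0.28).

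The difference itself was tested between the lines, and 1 miRNA entry (1.22%), 1 snoRNA (0.463%) and 67 circRNA entries (9.97%) passed in limma. The miRNA entry was hsa-mir-221, which is named for the precursor. It stood at 1591 and 1301 CPM in PC3 ATPS, against 633 and 797 CPM in PC3 exoRNeasy. In MDA ATPS it stood at 6129 and 4120 CPM, against 32337 and 16145 CPM in MDA exoRNeasy. Its mature arms hsa-miR-221-3p and hsa-miR-221-5p went the other way in PC3, at −1.06 and −1.20 (limma adjusted p = 0.125 and 0.104). Neither arm passed between the lines. For hsa-mir-221 the log2 fold change was 0.85 in PC3 and −2.14 in MDA (difference 2.99, SE 0.67, limma adjusted p = 0.0281). This call was lost with all 16 libraries in the fit (limma adjusted p = 0.301) and without PC3 ATPS replicate 1, PC3 ATPS replicate 2, MDA ATPS replicate 2, PC3 UC replicate 1, PC3 UC replicate 2 or MDA exoRNeasy replicate 1, with adjusted p from 0.0746 to 0.0993 in limma. The snoRNA was SNORA66, at −2.11 in PC3 and 0.48 in MDA (difference −2.59, SE 0.50, limma adjusted p = 0.00908). In MDA ATPS it stood at 7477 and 4646 CPM, against 4206 and 4217 CPM in MDA exoRNeasy. The call was lost without PC3 ATPS replicate 1 (limma adjusted p = 0.0826) or PC3 exoRNeasy replicate 2 (0.064). The circRNA count was 0 without PC3 ATPS replicate 2, PC3 exoRNeasy replicate 2 or MDA ATPS replicate 1, 3 without MDA exoRNeasy replicate 2, 11 without MDA ATPS replicate 2 or MDA exoRNeasy replicate 1, 26 to 39 without any other PC3 EV library, and 98 and 113 without MDA UC replicate 1 and 2.

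**Figure D5:**
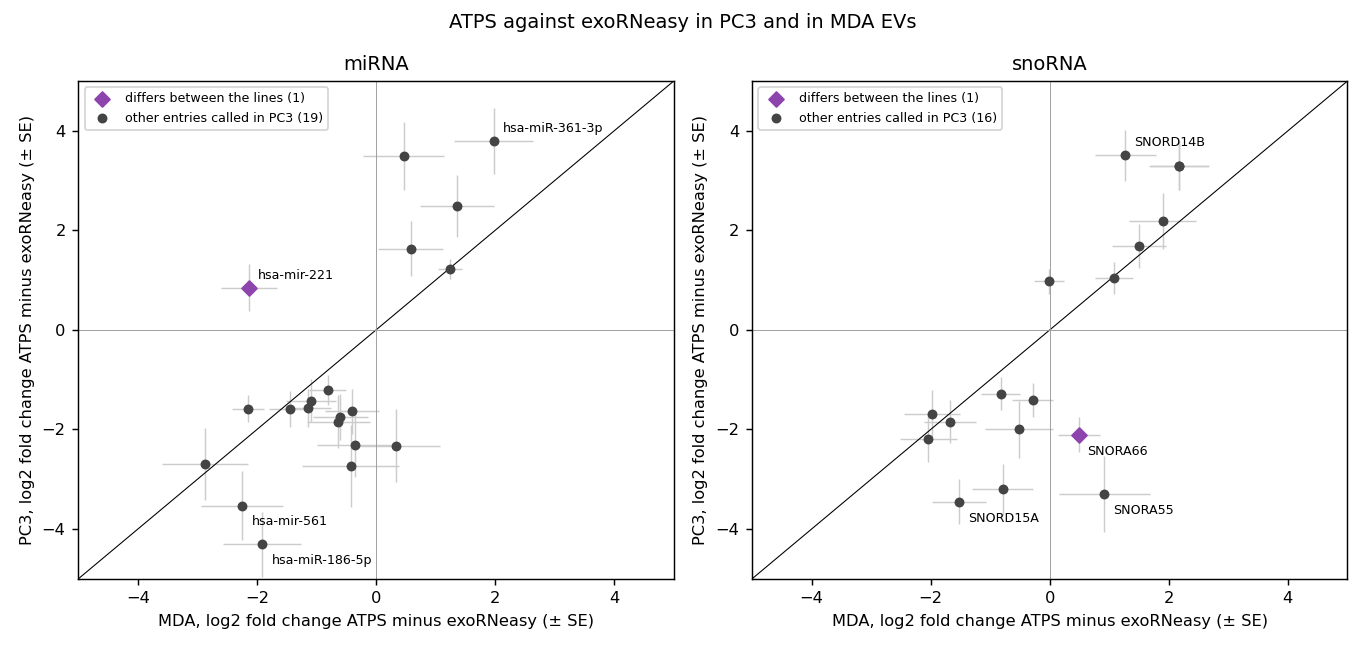
log2 fold change of ATPS minus exoRNeasy in PC3 EVs (vertical) against MDA EVs (horizontal) for the called miRNA and snoRNA entries, with SE bars; the diagonal marks equal values. Diamonds mark the entries whose difference between methods differed between the lines, hsa-mir-221 (0.85 in PC3 and −2.14 in MDA) and SNORA66 (−2.11 in PC3 and 0.48 in MDA).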

How the data were processed

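Small RNA was sequenced from EVs and cells (single-end, NEBNext kit). Per the study's methods, low-quality reads were discarded, short reads were kept, aligned with STAR to hg38 and annotated with COMPSRA. The methods name both tools without a version. The methods give unique reads more weight than multimapping ones. The values deposited by the authors, named TPM, are CPM within an RNA class with no length term, and in 100% of cells a value divided by that of a single read came out whole (tolerance 0.1). The test planned for TPM was kept. Reads have no molecular identifiers, so intervals cover counting error only, and floors do not cover the counting error of the group with reads.

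limma 3.58.1 (trend, robust) was fitted in R 4.3.3 on log2(CPM + pseudocount), with 200 for miRNA, 20 for snoRNA and 1 for circRNA, over entries with a mean over the 4 compared libraries of at least 500, 50 and 1 CPM. The fit held 12 EV libraries in 6 groups, so the spread was shared. Fold changes understate those of low entries. Entries tested were 82 of 915 for miRNA, 216 of 413 for snoRNA and 672 of 116577 for circRNA. Adjusted p-values (Benjamini-Hochberg, threshold 0.05) cover all tested entries of a class. edgeR 4.0.16 called 12 and 3 miRNA, 3 and 7 snoRNA, and 77 and 99 circRNA entries higher and lower on the recovered reads, and DESeq2 1.42.0 was also run. Other pseudocounts, filters, samples, scalings, a replicate block and leaving out each library were tried. The scripts were tested on simulated data. Named entries were the 15 most abundant miRNA and snoRNA, all called ones, and members of the lists; for circRNA the 8 most abundant and the 5 largest changes in each direction, of which the top 2 higher and the top lower one are printed, with hsa_circ_0017177 chosen after its values were seen. The members and lists were chosen with earlier results of these data known. Replicate libraries differed beyond sampling noise and were counted separately.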

Additional observations from a re-analysis of the deposited data

Results flagged for a closer look

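Differences between ATPS and exoRNeasy that depended on the cell line stood out for hsa-mir-221, SNORA66 and a set of circRNA entries. The mature arms of hsa-mir-221 did not pass between the lines. For hsa-mir-221 the PC3 minus MDA difference of the log2 fold changes was 2.99 (limma adjusted p = 0.0281), and it lost its call without any one of 6 libraries (adjusted p up to 0.0993 in limma) and with all 16 libraries in the fit (0.301). For SNORA66 it was −2.59 (limma adjusted p = 0.00908), and it was lost without PC3 ATPS replicate 1 or PC3 exoRNeasy replicate 2 (up to 0.0826). Of the 67 circRNA entries whose difference between methods differed between the lines, 55 changed more in PC3 with the same sign in both lines, 11 had opposite signs, and 1 changed more in MDA. The filter used the PC3 ATPS and PC3 exoRNeasy libraries only, so entries low in these but not in MDA could not enter this split, and circRNA entries share reads. All 67 were called in PC3, and none passed without PC3 ATPS replicate 2, PC3 exoRNeasy replicate 2 or MDA ATPS replicate 1, with 3 without MDA exoRNeasy replicate 2. No cause was tested.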

How the results depend on the processing

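No called miRNA or snoRNA and none of the 10 called circRNA entries chosen by the naming rule changed sign under any setting. The calls on hsa-miR-361-3p, hsa-mir-7641-2, hsa-miR-6073, SNORD14B, SNORA50, SNORA50C, SNORD15A, SNORD22, SNORA66 and those 10 circRNA entries held under all of them. Counts are given as higher, lower and different between the lines. For miRNA (5, 14 and 1) they were 4, 9 and 4 with a pseudocount of 1, 8, 20 and 2 without a filter, 4, 12 and 0 with all 16 libraries (one MDA cell library held 153 miRNA reads), 15, 3 and 5 after centring, 11, 13 and 1 after quantile normalization, 12, 3 and 2 with edgeR, and 3, 7 and 2 with DESeq2. Without the MDA libraries they were 9 and 19, and with the 4 libraries alone 9 and 11. For snoRNA (7, 10 and 1) the counts were 10, 11 and 3 without a filter, 7, 10 and 4 with all 16 libraries, 6, 9 and 2 after quantile normalization, and 3 higher with edgeR and with DESeq2. Without the MDA libraries they were 14 and 15, and with the 4 libraries alone 14 and 17. For circRNA (88, 140 and 67) they were 83, 124 and 23 with a pseudocount of 0.1, 58, 508 and 20 without a filter, 76, 88 and 51 with all 16 libraries, 85, 105 and 32 after centring, 102, 174 and 104 after quantile normalization, 105, 79 and 35 after rescaling, and 77, 99 and 13 with edgeR. Without the MDA libraries they were 131 and 219, and with the 4 libraries alone 136 and 224. Keeping 1 entry of each set with equal values, an alternative chosen after seeing the data, gave 75, 127 and 57.

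With the replicate number as a block, the counts were 7, 15 and 2 for miRNA, 10, 14 and 7 for snoRNA, and 89, 185 and 112 for circRNA. Deviations of same-numbered libraries correlated across entries at 0.12, 0.18 and 0.22 over 2 pairs, which are too few to tell if the numbers mark pairs. The main fit did not take them as pairs. Leaving out 1 library gave 4 to 14 higher, 5 to 17 lower and 0 to 4 line-dependent miRNA, 3 to 8, 4 to 11 and 0 to 4 snoRNA, and 25 to 80, 85 to 166 and 0 to 113 circRNA entries. For PC3 ATPS replicates 1 and 2 and PC3 exoRNeasy replicates 1 and 2 left out in that order, the higher entries numbered 4, 4, 14 and 8 for miRNA, 3, 4, 7 and 3 for snoRNA, and 40, 48, 25 and 51 for circRNA, and the lower entries 6, 5, 13 and 15 for miRNA, 9, 5, 4 and 6 for snoRNA, and 114, 85, 95 and 102 for circRNA. In a group left with 1 library, that library is assumed to vary like the other groups.

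For numbers of detected entries, the miRNA difference of 12 turned to −22.8 when thinned and −16.7 when thinned without the dominant entry, and the snoRNA difference of −6.5 turned to 1.3 and 1.53. Without 1 library the differences were 1 to 23 for miRNA, −9.5 to −3.5 for snoRNA and −9751 to −7974 for circRNA. The shares of PC3 ATPS and of PC3 exoRNeasy entries found with the other method were, for miRNA, 64.3% and 55.6% when thinned, 62.5% and 56.7% when also without the dominant entry, and 62.0% of PC3 ATPS entries when required in both libraries. For snoRNA they were 94.3% and 91.7% at 2 reads, 96.2% and 92.98% in both libraries, and 91.3% of PC3 exoRNeasy entries in either thinning. For circRNA they were 62.7% and 41.5% at 2 reads, 62.6% and 41.4% in both libraries, 53.1% of PC3 exoRNeasy entries when thinned, and 62.7% and 56.2% without the dominant entries. Without 1 library they were 45.5% to 67.6% and 50% to 72.7% for miRNA, 86.9% to 95.7% and 85.0% to 94.0% for snoRNA, and 52.1% to 73.1% and 37.9% to 59.9% for circRNA. The cause of each change was not tested, other than the smaller numbers of entries and libraries that an alternative leaves by construction. At 2508 to 5027 miRNA reads a library, entries of a few reads have wide counting intervals.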
